A study of Homo sapiens with 5 samples.

Results

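The 9 genes described here control the proteases of blood clotting and clot breakdown, and they were measured in COV434 cells with and without 3-nitropropanoic acid (3-NP). They are F3, TFPI, TFPI2, THBD, PLAU, PLAT, PLAUR, SERPINE2 and SERPINB2, 9 of the 30631 genes with a value. Each was matched from its Ensembl identifier to its GENCODE 29 symbol. The set was drawn up with the contrast of 3-NP and control cells already known, so the levels of these 9 genes in that contrast are given as a description and carry no test. There were 3 libraries of COV434 cells given 3-NP, an irreversible inhibitor of succinate dehydrogenase in the respiratory chain, and 2 libraries of control COV434 cells. The labels used here state no dose, exposure time, vehicle or culture condition. The labels describe COV434 as a human ovarian granulosa tumour line, and the line has since been reassigned by others to small cell carcinoma of the ovary, hypercalcaemic type. All libraries are named COV434 in their titles, although the cell line field of the labels runs through 5 consecutive numbers. Separate cultures are not stated either, and p-values therefore reflect library-to-library spread that may be only technical.

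Tissue factor, encoded by F3, is the membrane receptor that starts coagulation by binding factor VII, and the Kunitz-domain inhibitor TFPI shuts that complex down. Thrombomodulin, encoded by THBD, turns thrombin from a clotting enzyme into an activator of the anticoagulant protein C. The plasminogen activators PLAU (urokinase) and PLAT (tissue-type) cut plasminogen to plasmin, which dissolves fibrin and pericellular matrix. PLAUR holds urokinase at the cell surface, and serpins, which trap a protease by being cut, inhibit the activators. In the ovary, plasminogen activators of granulosa cells have long been studied for their part in follicle rupture at ovulation.

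The promoter sequences below are those of TFPI2, SERPINB2, PLAUR and F3. They are shown because they hold the 7-letter AP-1 motif TGANTCA in the 250 bases before their RefSeq start. TFPI2, SERPINB2 and PLAUR were higher in 3-NP cells and F3 was lower. The windows were picked for the motif with the levels already known. A link between the motif and the size or direction of a difference was therefore not tested. The windows are from RefSeq on GRCh38.p14, written 5′ to 3′ on the gene's strand. The TFPI2 window is chr7:93890754-93891003, minus strand, that of SERPINB2 chr18:63887455-63887704, plus strand, that of PLAUR chr19:43670170-43670419, minus strand and that of F3 chr1:94541760-94542009, minus strand. Capitals mark exact matches, on either strand, to AP-1, to the kappa B decamer, to the EGR1 motif GCGGGGGCG, which in these windows overlaps a GC box (GGGCGG), and to the TATA motif TATAAA.
TFPI2: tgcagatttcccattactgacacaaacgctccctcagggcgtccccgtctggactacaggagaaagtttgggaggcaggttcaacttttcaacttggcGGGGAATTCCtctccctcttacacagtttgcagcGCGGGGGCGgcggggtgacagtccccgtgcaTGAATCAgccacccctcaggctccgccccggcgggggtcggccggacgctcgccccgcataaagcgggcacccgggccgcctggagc
SERPINB2: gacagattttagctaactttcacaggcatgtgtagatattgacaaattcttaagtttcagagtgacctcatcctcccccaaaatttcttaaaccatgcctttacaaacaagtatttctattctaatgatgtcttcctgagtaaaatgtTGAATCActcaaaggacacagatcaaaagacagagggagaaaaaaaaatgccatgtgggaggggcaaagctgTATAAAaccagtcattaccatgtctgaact
PLAUR: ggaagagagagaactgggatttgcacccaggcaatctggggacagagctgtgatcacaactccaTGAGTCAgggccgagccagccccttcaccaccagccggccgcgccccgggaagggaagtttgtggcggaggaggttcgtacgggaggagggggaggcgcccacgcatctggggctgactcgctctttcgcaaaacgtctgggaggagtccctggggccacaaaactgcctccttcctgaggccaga
F3: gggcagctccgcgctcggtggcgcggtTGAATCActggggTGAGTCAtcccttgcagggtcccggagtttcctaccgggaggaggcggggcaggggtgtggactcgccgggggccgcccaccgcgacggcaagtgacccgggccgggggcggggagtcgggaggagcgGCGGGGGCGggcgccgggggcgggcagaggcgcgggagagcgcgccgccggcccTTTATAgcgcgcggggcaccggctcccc
F3 holds 2 AP-1 matches, beginning 223 and 210 bases before the start, and TFPI2, SERPINB2 and PLAUR hold 1 each, beginning 87, 102 and 186 bases before it. AP-1 matches were present in 6.6% of the 35116 promoter windows of the same length. TFPI2 and F3 also hold the EGR1 motif, found in 4.7% of all windows, and TFPI2 holds a kappa B match, found in 3498 of the 35116 windows. SERPINB2 and F3 hold a TATA match, found in 10.7%, and on F3 it lies in the reverse orientation. The CRE motif TGACGTCA (1.6% of all windows) and the TEAD motif CATTCC (11.9%) matched no window of the 9 genes. Windows were found for 7 of the 9 genes. Those of TFPI, PLAU and SERPINE2 hold no AP-1 match in these letters, and PLAT and THBD are named only. A match describes the letters and does not show that a factor binds there.

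Levels are FPKM, fragments per kilobase of gene scaled to library depth, and the depth recovered from them was 18653000 to 18883000 reads in the 3-NP libraries and 17837000 and 18752000 reads in the control libraries. At these depths 3 reads on a gene of 2 kb make 0.0794 to 0.0841 FPKM, which bounds a listed 0 as far as counting error goes. Over 11858 tested genes the Pearson correlation of log2(FPKM + 1) was 0.968 to 0.982 among the 3-NP libraries, with replicate 1 the least like the other two, and 0.985 between the controls (across genes, which are not independent replicates). The whole-table fit called 40.8% of the genes tested, 15.5% higher and 25.2% lower in 3-NP cells, at an adjusted p under 0.05 by limma. The median log2 change of all genes tested was −0.11, and it was −0.01 with median-of-ratios scaling and −0.20 with equal FPKM totals. Calls were 61.9% lower ones, against 52.0% after quantile normalization and 51.2% with median-of-ratios scaling, 68.9% with equal FPKM totals, and with the gene length trend removed 2542 were higher and 2537 lower. Of the markers of granulosa cells, CYP19A1, FSHR and WT1 were under 0.5 FPKM in every library. FOXL2 and NR5A1 were called lower, and none of the 4 tested was called higher. GATA4, tested but not called, had 2.67, 2.46 and 2.81 FPKM in 3-NP cells, against 1.5 and 2.12 FPKM in controls. AMH, also not called, had 1.23, 1.18 and 1.11 FPKM in 3-NP cells, against 0.866 and 1.19 FPKM in controls. Endothelium is a main source of THBD, TFPI and PLAT in the body, and 5 of its 7 markers (PECAM1, CDH5, CLDN5, TIE1 and ERG) were under 0.5 FPKM throughout. TEK fell, KDR had 2.12, 1.64 and 1.26 FPKM in 3-NP cells, against 0.23 and 0.197 FPKM in controls, and the endothelial markers summed to 2.51 to 4.15 FPKM in 3-NP cells and 5.45 to 7.17 FPKM in controls. Monocyte and hepatocyte markers, 6 and 5 genes, all stayed under 0.5 FPKM, and of the platelet markers 2 were listed, neither high enough to test. Of 3 fibroblast markers tested only COL1A1 was called, as lower. COL3A1 had 5.66, 26.1 and 29.6 FPKM in 3-NP cells, against 58.0 and 57.9 FPKM in controls. DCN had 1.21 to 1.26 FPKM in 3-NP cells and 0.868 and 0.711 FPKM in controls. Of 2 epithelial markers tested, CLDN4 had 0.935, 1.22 and 1.65 FPKM in 3-NP cells, against 0.408 and 0.286 FPKM in controls, and KRT7 had 17.5, 78.0 and 77.8 FPKM, against 101 and 168 FPKM. The fibroblast and epithelial lists summed to 98.8 to 204 and 18.7 to 80.2 FPKM in 3-NP cells, against 666 to 679 and 102 to 168 FPKM in controls. The part of these other markers in the results on the 9 genes was not tested.

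Of the 9 genes, 8 passed the filter of 1 FPKM in at least 2 libraries, and THBD did not. TFPI2 and SERPINB2 passed it only through the 3-NP libraries, where they are high. In the whole-table fit 4 of the 8 were called higher in 3-NP cells (TFPI2, SERPINB2, PLAUR and PLAT), beside 15.5% of all genes tested, and 1 was called lower (PLAU), beside 25.2%. Libraries of the groups did not overlap for 8 of the 9, with 6 higher and 2 lower after 3-NP, while 64.2% of all genes tested did not overlap, 25.8% higher and 38.4% lower. Because the genes were picked on this contrast, these counts describe the choice and nothing is read from them. Whether a level differs because fewer cells carry an RNA or because each cell holds less of it cannot be told apart in bulk RNA.

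The plot of levels by library shows all 9 genes.

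**Figure D1:**
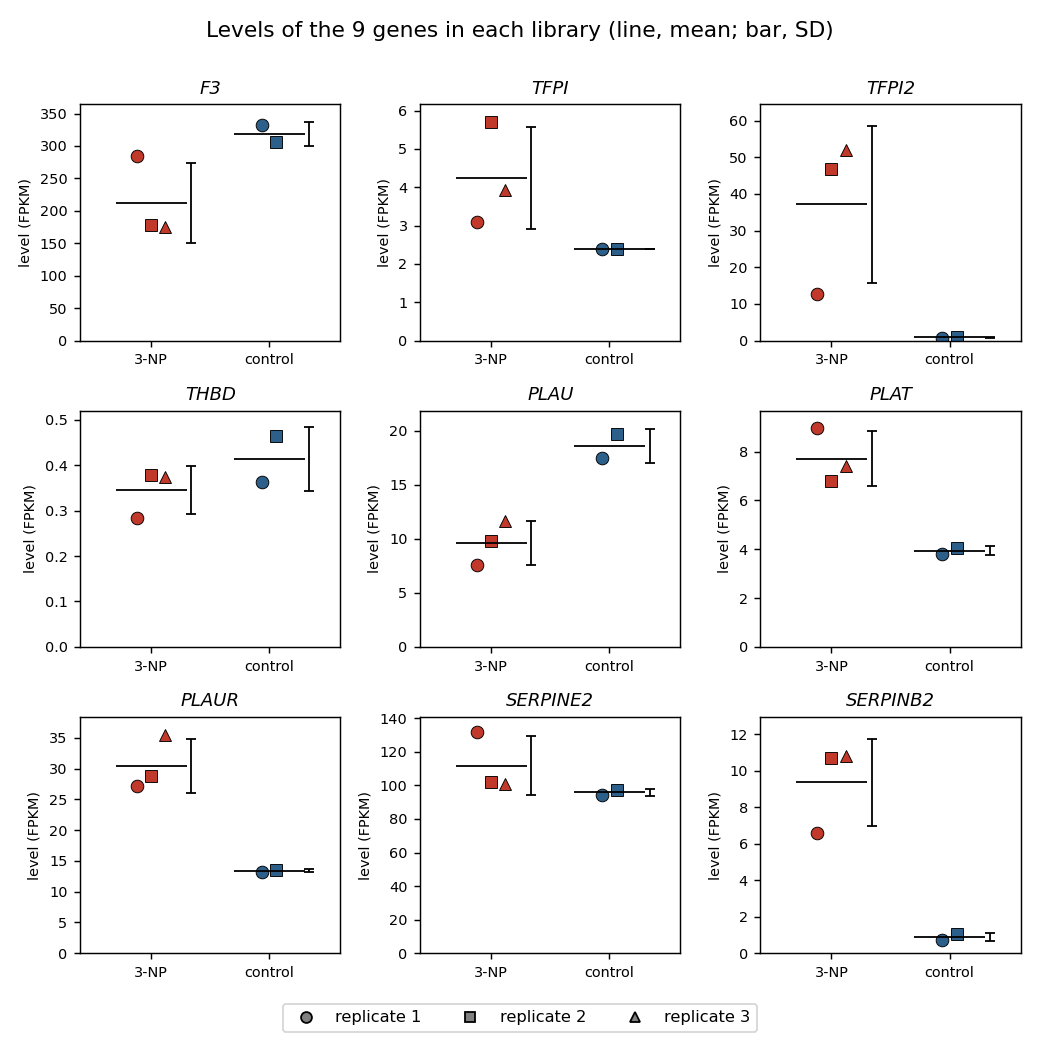
Level of each of the 9 genes (FPKM, linear axis from 0) in the 3 3-NP libraries (red) and the 2 control libraries (blue), with marker shape for the replicate number, a line at the mean and a bar of 1 SD. TFPI2 lay between 12.7 and 52.0 FPKM in 3-NP cells and under 1 FPKM in controls, and THBD is the only gene whose groups overlap.

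On the coagulation side, F3 and TFPI were not called in the whole-table fit, and their values follow before those of TFPI2. F3 (chromosome 1, positions 94529225 to 94541800, GRCh38) stood at 284, 178 and 175 FPKM in 3-NP replicates 1, 2 and 3, against 332 and 306 FPKM in controls. Its means were 212 ± 61.7 FPKM in 3-NP cells and 319 ± 18.3 FPKM in controls (SD, n = 3 and 2), and the fitted log2 change was −0.62 ± 0.24 SE on log2(FPKM + 1), the scale of all fitted changes here. The groups did not overlap, but 3-NP replicate 1 lay nearer to the lower control than to the other 3-NP libraries. F3 was among the most abundant transcripts of the cells, above 99.4% of all listed genes in 3-NP cells and above 99.7% in controls. TFPI (chromosome 2, positions 187464230 to 187565760), the inhibitor of the tissue factor complex, had 3.1, 5.7 and 3.93 FPKM in 3-NP cells and 2.38 FPKM in each control library. It was above both controls in every 3-NP library, with a fitted log2 change of 0.60 ± 0.21 SE, and its highest 3-NP library was 1.84 times its lowest.

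TFPI2 (chromosome 7, positions 93885396 to 93890991) had the largest difference of the 9. It encodes a secreted Kunitz-domain relative of TFPI that inhibits plasmin, trypsin and other matrix-degrading proteases more than the tissue factor complex, and that placenta makes in quantity. Its level was 12.7, 46.7 and 52.0 FPKM in 3-NP replicates 1, 2 and 3, against 0.821 and 0.989 FPKM in controls. All 3-NP libraries were far above both controls, and 3-NP replicate 1 was far below the other 3-NP libraries. The mean was 37.1 ± 21.3 FPKM in 3-NP cells and 0.905 ± 0.119 FPKM in controls (SD, n = 3 and 2), a ratio of 41.0 and a fitted log2 change of 4.10 ± 0.53 SE. Without 3-NP replicate 1 the fitted change was 4.72. TFPI2 was above 94.9% of all listed genes in 3-NP cells and above 62.4% in controls. About 41 and 47 reads lay behind the control values, with 95% exact Poisson intervals of 29.4 to 55.6 and 34.5 to 62.5 reads, which cover counting error only.

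THBD (chromosome 20, positions 23045633 to 23049741) was the only one of the 9 whose libraries overlapped between the groups. It had 0.284, 0.378 and 0.375 FPKM in 3-NP cells, from 22, 29 and 29 reads, and 0.363 and 0.464 FPKM in controls, from 28 and 34 reads. The exact Poisson intervals of these reads ran from 13.8 to 41.6 in 3-NP cells and from 18.6 to 47.5 in controls, and they overlapped between the groups. Fitted without the low-value filter, its log2 change was −0.07 ± 0.09 SE.

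The plasminogen activators differed in opposite directions. PLAU, the urokinase gene (chromosome 10, positions 73909177 to 73917497), had 7.54, 9.76 and 11.6 FPKM in 3-NP cells, against 17.5 and 19.7 FPKM in controls. Every 3-NP library was below both controls, with means of 9.63 ± 2.03 and 18.6 ± 1.6 FPKM (SD, n = 3 and 2) in 3-NP and control cells and a fitted log2 change of −0.90 ± 0.19 SE. PLAT, the tissue-type activator (chromosome 8, positions 42175233 to 42207724), had 8.95, 6.78 and 7.42 FPKM in 3-NP cells, against 3.80 and 4.07 FPKM in controls. Every 3-NP library was above both controls, and the fitted log2 change was 0.81 ± 0.15 SE. The ratio of PLAU to PLAT in FPKM was 0.842, 1.44 and 1.56 in 3-NP replicates 1, 2 and 3, against 4.60 and 4.84 in controls. By FPKM, PLAU was thus above PLAT in both controls and in 3-NP replicates 2 and 3, but not in 3-NP replicate 1. FPKM divides by summed exons of 2950 bases for PLAU and 6618 for PLAT. In reads PLAU was also above PLAT in both controls (966 and 1038 against 471 and 481). It was below PLAT in reads in every 3-NP library (420, 537 and 644 against 1119, 837 and 925). Which activator was more abundant in 3-NP replicates 2 and 3 is therefore not resolved.

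PLAUR, the cell-surface receptor for urokinase (chromosome 19, positions 43646095 to 43670547), was higher in 3-NP cells than in controls, while PLAU was lower. PLAUR had 27.1, 28.8 and 35.4 FPKM in 3-NP cells, against 13.2 and 13.6 FPKM in controls. Among the 3-NP libraries PLAUR and PLAU did not run opposite, as both were lowest in replicate 1 and highest in replicate 3. The 3-NP libraries were all above both controls, with means of 30.4 ± 4.41 and 13.4 ± 0.256 FPKM (SD, n = 3 and 2) in 3-NP and control cells and a fitted log2 change of 1.12 ± 0.16 SE. The ratio of PLAUR to PLAU in FPKM was 3.59, 2.95 and 3.06 in 3-NP cells, against 0.756 and 0.687 in controls.

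Of the inhibitor serpins, SERPINB2 had a large difference and SERPINE2 a small one. SERPINB2 (chromosome 18, positions 63871692 to 63903890) encodes plasminogen activator inhibitor type 2, which is largely kept inside the cell and blocks urokinase. It had 6.61, 10.7 and 10.8 FPKM in 3-NP cells, against 0.718 and 1.06 FPKM in controls, from 37 and 52 reads. All 3-NP libraries were above both controls, with means of 9.39 ± 2.41 and 0.889 ± 0.242 FPKM (SD, n = 3 and 2) in 3-NP and control cells, a ratio of 10.6 and a fitted log2 change of 2.44 ± 0.22 SE. SERPINE2 (chromosome 2, positions 223975112 to 224039319) encodes protease nexin 1, a heparin-binding inhibitor of thrombin, urokinase and plasmin. It had 132, 102 and 101 FPKM in 3-NP cells and 94.2 and 97.4 FPKM in controls. The groups did not overlap, but 3-NP replicates 2 and 3 lay close to the controls, and the fitted log2 change was 0.21 ± 0.17 SE, or 0.08 without 3-NP replicate 1.

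Set side by side per length, the 9 genes kept the same top pair and changed order below it. In 3-NP cells the order by mean FPKM was F3, SERPINE2, TFPI2, PLAUR, PLAU, SERPINB2, PLAT, TFPI and THBD. In controls it was F3, SERPINE2, PLAU, PLAUR, PLAT, TFPI, TFPI2, SERPINB2 and THBD. Neighbours whose libraries overlapped were TFPI2 and PLAUR, PLAU and SERPINB2, and SERPINB2 and PLAT in 3-NP cells, and TFPI2 and SERPINB2 in controls, so their order is not resolved. These levels rest on the summed exons of all annotated isoforms, 11714 bases for TFPI and 8891 for SERPINE2 against 2682 for TFPI2. The order of genes whose libraries were apart therefore also depends on these lengths. In controls PLAU, with 2950 bases, was above PLAUR, with 4457, in FPKM. In reads PLAU was below PLAUR there (966 and 1038 against 1103 and 1078). F3 was above SERPINE2 in FPKM throughout, but below it in reads in every 3-NP library. The ratio of F3 to the sum of TFPI and TFPI2 was 17.9, 3.39 and 3.13 in 3-NP replicates 1, 2 and 3, against 104 and 90.8 in controls. TFPI2 was at 4.10, 8.19 and 13.2 times the level of TFPI in 3-NP cells, against 0.345 and 0.415 times in controls. Most of the sum was thus TFPI2 in 3-NP cells and TFPI in controls, and TFPI2 inhibits other proteases more than the tissue factor complex. The ratio of SERPINE2 to SERPINB2 was 19.9, 9.47 and 9.34 in 3-NP cells and 131 and 91.8 in controls.

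**Figure D2:**
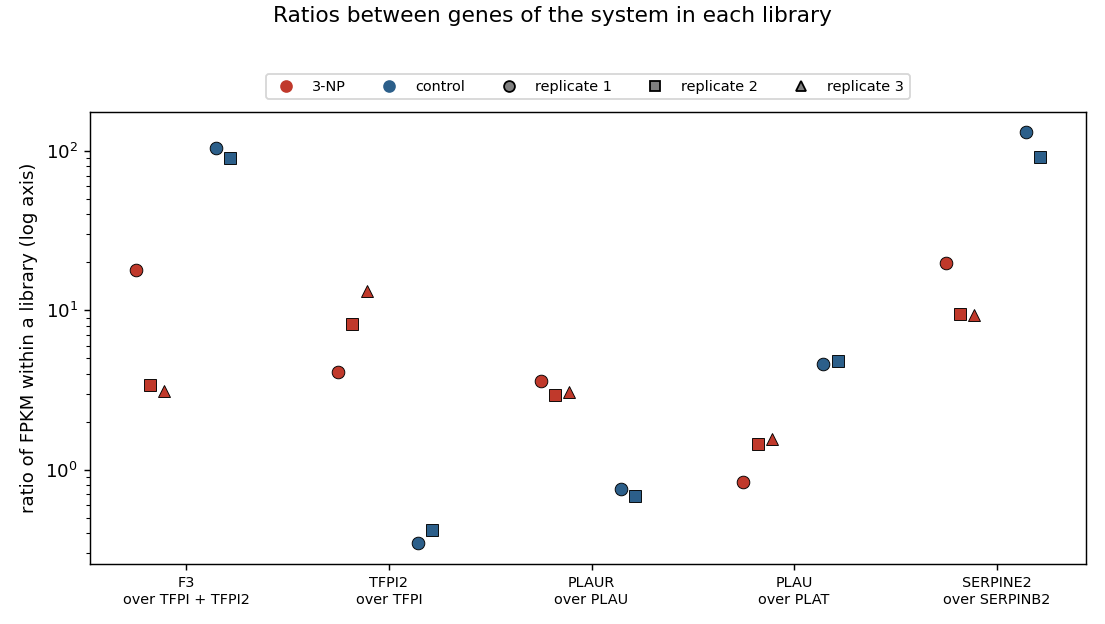
Ratios of FPKM between genes of the system within each library (log axis), 3-NP libraries in red left of control libraries in blue, with marker shape for the replicate number. The ratio of F3 to TFPI plus TFPI2 was 3.13 to 17.9 in 3-NP cells and 90.8 and 104 in controls, with 3-NP replicate 1 nearest to the controls. Most of that sum was TFPI2 in 3-NP cells and TFPI in controls.

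The 3-NP libraries were not alike in these genes. Replicate 1 was the lowest 3-NP library for TFPI2, TFPI, SERPINB2, PLAU, PLAUR and THBD and the highest for F3, SERPINE2 and PLAT. Within 3-NP cells the highest library was 4.09 times the lowest for TFPI2, 1.64 times for SERPINB2 and 1.62 times for F3, and 1.30 to 1.33 times for SERPINE2, PLAUR, PLAT and THBD. For TFPI2, SERPINB2, TFPI, PLAUR and F3 replicate 1 was thus closer to the controls, and for PLAU, PLAT and SERPINE2 it was farther from them. Left out, it gave fitted log2 changes of 2.65 for SERPINB2, 1.20 for PLAUR, 0.77 for TFPI, 0.71 for PLAT, −0.75 for PLAU and −0.85 for F3. The depth of this library, 18883000 reads, was like that of the others, and what sets it apart was not tested.

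Some of the 9 genes overlap others, and the strand setting of the counter is not known. PLAU shares 916 exonic bases, 31.1% of its own, with C10orf55 on the opposite strand, which was listed at 0 to 0.0213 FPKM in 3-NP cells and 0 and 0.111 FPKM in controls. SERPINB2 shares 547 exonic bases, 19.9% of its own, with SERPINB10 on the same strand, listed at 0 in every library. TFPI2 shares 44 exonic bases with GNGT1 and 79 with AC002076.1, and TFPI shares 118 with AC007319.1, all on the opposite strand, and none of these genes had more than 3 reads in a library. How reads in shared bases were assigned is not given, so levels of these 4 genes carry that uncertainty.

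The rest of the plasminogen and coagulation system was read from lists. Outside the 9 genes, 93 genes in 9 lists were looked up, 80 had values and 38 passed the filter. Of the 38, 5 were called higher (1 of them, F2RL2, passed the filter only through the 3-NP libraries) and 6 lower at an adjusted p under 0.05 by limma, which is 28.9% called, beside 40.8% of all genes tested. Their median log2 change was 0.06, against −0.11 for all genes tested. With median-of-ratios scaling 7 were called higher and 3 lower, with the length trend removed 8 and 4, and with equal FPKM totals 3 and 7. Of the clotting genes made mainly by the liver, F2 and F7 were listed at 0 in every library. PROC had 0.828, 0.516 and 0.447 FPKM in 3-NP cells, against 0.128 and 0.382 FPKM in controls, and was too low to test.

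Among the 4 tested fibrinolysis inhibitors, SERPINI1 (neuroserpin, an inhibitor of PLAT) rose and THBS1 (thrombospondin 1, a matrix glycoprotein) fell. SERPINI1 had 6.77, 6.19 and 5.86 FPKM in 3-NP cells, against 3.33 and 3.25 FPKM in controls (log2 change 0.76 ± 0.13 SE, adjusted p = 0.00473 by limma). THBS1 had 313, 259 and 234 FPKM in 3-NP cells, against 470 and 375 FPKM in controls (log2 change −0.65 ± 0.19 SE, adjusted p = 0.0306 by limma).

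Plasminogen binding and activation genes showed 1 rise and no fall among 6 tested. The rise was in ANXA2, which with S100A10 forms a cell-surface docking site for PLAT and plasminogen. ANXA2 averaged 632 ± 30.8 FPKM in 3-NP cells and 399 ± 31.4 FPKM in controls (SD, n = 3 and 2; log2 change 0.66 ± 0.16 SE, adjusted p = 0.0136 by limma), a value made uncertain by near-identical pseudogenes. S100A10 averaged 80.7 ± 20.4 FPKM in 3-NP cells and 80.6 ± 9.31 FPKM in controls (log2 change −0.02 ± 0.22 SE, adjusted p = 0.942 by limma). Of the protease-activated receptors, which thrombin or trypsin-like proteases switch on by cutting, F2RL1 rose. It had 14.4, 17.1 and 16.3 FPKM in 3-NP cells, against 9.28 and 9.38 FPKM in controls (log2 change 0.71 ± 0.14 SE, adjusted p = 0.00657 by limma). F2RL2 had 1.62, 1.27 and 1.24 FPKM in 3-NP cells, against 0.809 and 0.507 FPKM in controls, so it passed the filter only through the 3-NP libraries and its call is not read as a rise. The thrombin receptor F2R averaged 10.9 ± 2.42 FPKM in 3-NP cells and 10.8 ± 1.14 FPKM in controls, and its groups overlapped (log2 change 0.00 ± 0.19 SE, adjusted p = 0.986 by limma).

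The largest called change among the 38 listed genes tested was a fall in SERPINH1, the collagen chaperone of the serpin family, which does not inhibit proteases. It had 11.9, 15.9 and 17.1 FPKM in 3-NP cells, against 66.6 and 72.9 FPKM in controls (log2 change −2.16 ± 0.18 SE, adjusted p = 0.000393 by limma). Of the 6 other serpins tested, 3 fell and none rose. SERPINB8, an intracellular inhibitor, fell by 1.18 on the log2 scale and SERPINB6, an inhibitor of cathepsin G, by 0.56. The secreted protease PRSS23 averaged 90.2 ± 4.05 FPKM in 3-NP cells and 166 ± 2.31 FPKM in controls (log2 change −0.88 ± 0.14 SE, adjusted p = 0.00303 by limma), and it was the 1 call among 2 other trypsin-like proteases tested. The Kunitz-domain gene APLP2 rose (0.47 ± 0.14 SE), 1 of 2 tested. VKORC1L1, a relative of the vitamin K recycling enzyme VKORC1, fell (−0.53 ± 0.17 SE), 1 of 5 tested in the list of coagulation factors and their carboxylation and secretion. VKORC1 itself was too low to test, at 0.363, 0.416 and 0.654 FPKM in 3-NP cells and 0.243 and 0.23 FPKM in controls. None of the 4 tested anticoagulant genes and none of the 6 clearance receptors was called. The protein C receptor PROCR had a log2 change of 0.35 ± 0.16 SE (adjusted p = 0.123 by limma). LRP1, which takes up protease and inhibitor complexes, had 52.1, 33.7 and 39.8 FPKM in 3-NP cells, against 68.0 and 52.7 FPKM in controls (log2 change −0.53 ± 0.21 SE, adjusted p = 0.085, and 0.0185 without 3-NP replicate 1, by limma).

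Several of these calls depended on the libraries or settings used. Those of ANXA2, F2RL1, THBS1, SERPINB6, APLP2 and VKORC1L1 were lost without control replicate 1 (adjusted p = 0.0591 to 0.218 by limma) and without control replicate 2 (0.0529 to 0.188), though F2RL1 kept a log2 change of 0.70 and 0.71. With both controls kept, all but F2RL1 were lost without a low-value filter (0.0569 to 0.0995), THBS1, SERPINB6 and VKORC1L1 with median-of-ratios scaling (0.0634 to 0.0972), APLP2 and VKORC1L1 with quantile normalization (0.057 and 0.0668), APLP2 with equal FPKM totals (0.0841), and SERPINB6 and VKORC1L1 with the length trend removed (0.265 and 0.0816). Without 3-NP replicate 2 the calls of THBS1, SERPINB6, APLP2 and VKORC1L1 were lost (0.0564 to 0.0838), and without 3-NP replicate 3 those of THBS1, APLP2 and VKORC1L1 (0.0652 to 0.0965). The calls of SERPINI1, SERPINH1, SERPINB8 and PRSS23 passed in all 15 alternatives. The plot of fitted changes sets these genes beside the 8 tested ones.

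**Figure D3:**
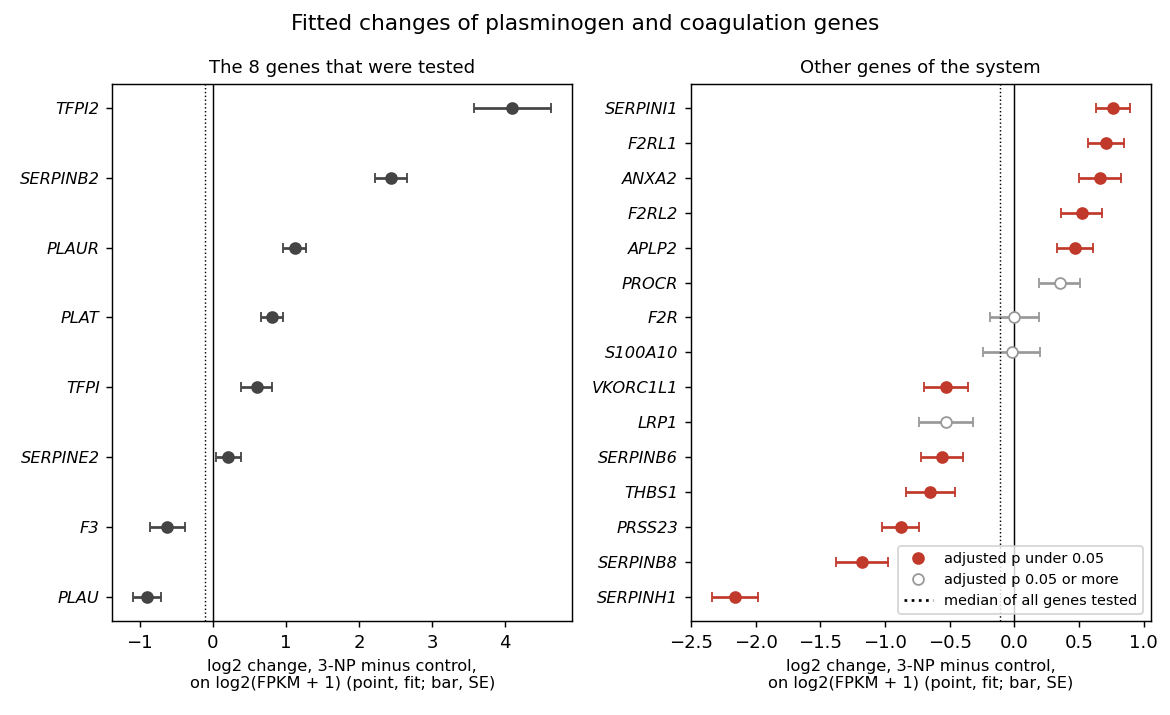
Fitted log2 change, 3-NP minus control, on log2(FPKM + 1) (point, fit; bar, SE) for the 8 of the 9 genes that passed the filter (left) and the other named genes of the system (right, filled red where adjusted p was under 0.05), with a dotted line at −0.11, the median of all genes tested. The horizontal scales differ between the panels. F2RL2 passed the filter only through the 3-NP libraries. TFPI2 lies at 4.10 and SERPINH1 at −2.16.

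SERPINB2 lies in a cluster of clade B serpin genes on chromosome 18, and its level was set beside those of its neighbours. SERPINB8, which follows SERPINB10 in the cluster, had 1.71, 3.16 and 2.48 FPKM in 3-NP cells, against 7.04 and 6.39 FPKM in controls (log2 change −1.18 ± 0.20 SE, adjusted p = 0.00395 by limma), opposite in direction to SERPINB2. SERPINB7, on the other side, had 3.35, 4.49 and 4.73 FPKM in 3-NP cells and 3.52 and 2.57 FPKM in controls, and its groups overlapped (adjusted p = 0.153 by limma). SERPINB5 had 0.161, 2.08 and 2.35 FPKM in 3-NP cells and 0.772 and 0.925 FPKM in controls, again with 3-NP replicate 1 low (adjusted p = 0.588 by limma). SERPINB3, SERPINB4, SERPINB10, SERPINB12 and SERPINB13 stayed at or under 0.168 FPKM in every library.

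**Figure D4:**
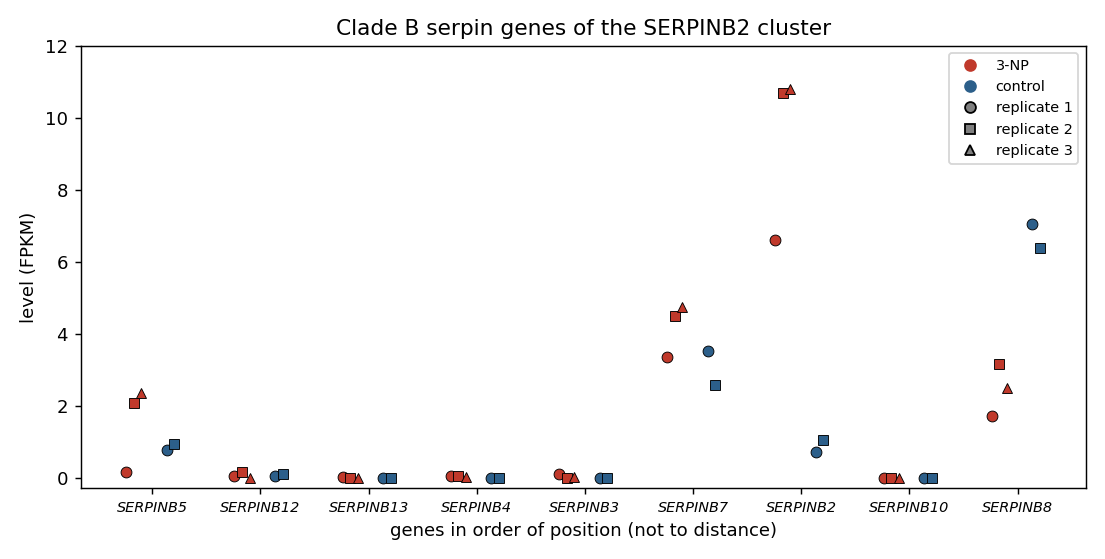
Level (FPKM) of clade B serpin genes on chromosome 18 in order of position, 3-NP libraries in red left of control libraries in blue, with marker shape for the replicate number. SERPINB2 lies at 6.61 to 10.8 FPKM in 3-NP cells and at 0.718 and 1.06 FPKM in controls, and SERPINB8 lies lower in 3-NP cells than in controls.

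Genes with the pattern most like a given one were taken as those at the smallest Euclidean distance over the 5 libraries, on log2(FPKM + 1) centred on each gene's mean. For TFPI2 the nearest protein-coding genes were MT1X, a metallothionein with near-identical copies (distance 0.553), the EGF receptor ligand AREG (0.64) and the cytokine IL11 (0.803). All were lowest among 3-NP libraries in replicate 1, as TFPI2 was. MT1X had 6.09, 17.9 and 18.1 FPKM in 3-NP cells, against 0.0301 and 0 FPKM in controls, from 1 read and none. AREG had 16.4, 33.3 and 43.6 FPKM in 3-NP cells, against 1.0 and 0.918 FPKM in controls. IL11 had 13.5, 46.0 and 47.8 FPKM in 3-NP cells, against 2.06 and 2.12 FPKM in controls. For PLAU the nearest were DOLPP1, an enzyme of dolichol recycling (0.0412), the replication factor GINS1 (0.0532) and the adaptor SH2B1 (0.0753). DOLPP1 had 3.30, 4.43 and 5.27 FPKM in 3-NP cells, against 8.44 and 9.70 FPKM in controls, and like PLAU it was lowest in 3-NP replicate 1. These distances rest on the added 1 FPKM, which shrinks changes of genes near 0. With a pseudocount of 0.1 the fitted log2 change was 4.97 for TFPI2, beside 6.79 for MT1X, 4.77 for AREG and 3.83 for IL11. That of PLAU was −0.96, beside −1.07 for DOLPP1, −1.49 for GINS1 and −1.1 for SH2B1. The genes were picked for likeness over all 5 libraries, 3-NP replicate 1 among them. This likeness, with its low replicate 1, is thus a description over 5 libraries that share their 2 groups.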

How the data were processed

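RNA from 3 libraries of 3-NP cells and 2 of control cells was analysed, with groups and replicate numbers from the sample titles. TRIzol RNA went into stranded mRNA libraries, per the labels' protocols. Per the submitters' processing notes, HISAT2 2.1, Trimmomatic 0.39 and bcl2fastq 2.17 were used, with GRCh38 as the build. The counter, annotation and strand setting were not stated in the sources used here. The unit of the deposited values was taken to be FPKM, since multiplying by GENCODE 29 exon-union length turned most of them into whole reads (93.4% to 93.9% of values under 1000 reads, within 0.05 read), which gave the depths. TFPI2 came out slightly off whole reads, so its reads are approximate. Of 30631 identifiers 30390 were in GENCODE 29.

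The 11858 genes that reached 1 FPKM in 2 or more libraries entered a single limma 3.58.1 fit (R 4.3.3) of log2(FPKM + 1), using limma's intensity trend, the group as the only term and 3 residual degrees of freedom. P-values were adjusted by Benjamini-Hochberg over all genes tested at 0.05. The added 1 shrinks fold changes of weakly expressed genes. On simulated data with known changes the fit recovered most of the changed genes, and the share of false calls was above the threshold set. The 15 alternatives were 3 scalings (quantile, equal totals, median of ratios), 2 filters (none, or 2 FPKM in every library of a group), a pseudocount of 0.1, mitochondrial genes left out, voom on recovered reads, removal of the length trend, a replicate block and each of the 5 libraries left out. The members and lists were chosen with earlier results of these data known. Besides the 9 genes, the named genes were PROCR, F2R, F2RL1, ANXA2, S100A10 and LRP1, up to 3 called genes with the smallest p per list, and the 3 nearest patterns to the member with the largest rise and the largest fall. A further gene of this rule is not reported here. Marker genes, the serpin cluster and genes listed at or near 0 were named after their values were seen.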

Additional observations from a re-analysis of the deposited data

How the results depend on the processing

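The direction of the 8 tested genes of the 9 did not change under any of the 15 alternatives. Leaving out a library could not have reversed it, because the groups did not overlap for these genes. The other alternatives refit the same 5 libraries, and the genes were picked on this contrast. The unchanged direction is therefore a description and no support. Fitted log2 changes ranged from 3.75 to 5.12 for TFPI2, 2.31 to 3.39 for SERPINB2, 1.01 to 1.24 for PLAUR, 0.71 to 0.97 for PLAT, 0.41 to 0.83 for TFPI, 0.08 to 0.39 for SERPINE2, −0.85 to −0.50 for F3 and −1.03 to −0.75 for PLAU. THBD could be fitted only without the filter. The largest shifts for TFPI2 and SERPINB2 came with voom on recovered reads, which adds no FPKM pseudocount. Over all genes, 1842 were called higher and 2991 lower. Leaving out 1 library gave 752 to 2147 higher and 1062 to 3107 lower, with the lowest counts without control replicate 1 (752 and 1062) and control replicate 2 (909 and 1179). For the other genes of the system, 5 higher and 6 lower became 3 and 3 without a low-value filter, 3 higher with equal FPKM totals, 8 higher with the length trend removed and 3 lower with median-of-ratios scaling, and leaving out 1 library gave 1 to 8 higher (1 without either control, 8 without 3-NP replicate 1) and 3 to 7 lower (3 without either control or 3-NP replicate 2). The cause was not tested. Whether the replicate numbers pair the libraries cannot be told. The correlation of same-numbered deviations was 0.157 and −0.351, but the deviations of 2 controls from their mean are mirror images of each other. With the replicate numbers as a block 1737 genes were called higher and 2610 lower, and 6 and 5 of the other genes of the system. VKORC1L1, F2RL2 and APLP2 were then no longer past the threshold. The 2 controls limit every call, and the control levels of TFPI2, SERPINB2 and THBD rest on few reads.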
